A study of Mus musculus with 31 samples.

Results

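The T cell receptor complex and its signalling machinery were followed as 41 genes, taken by gene symbol from the 24594 genes of a count table of sorted mouse regulatory T cells (Tregs). The list held 5 genes of the receptor complex and co-receptor, 4 surface co-stimulators and modulators, 4 proximal tyrosine kinases, 6 adaptors, 6 effector enzymes including the NF-kB arm, 5 genes of calcium entry and NFAT, and 11 negative regulators. All 41 were in the table and all 41 passed the filter on low counts in each comparison.

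A T cell reads antigen through its receptor, whose CD3 and zeta chains carry tyrosine motifs that LCK phosphorylates and ZAP70 binds. ZAP70 then phosphorylates the adaptors LAT and SLP-76 (Lcp2), from which the signal divides into calcium entry and NFAT, RasGRP and Ras, and a route through PKC-theta, BCL10 and MALT1 to NF-kB. Phosphatases, ubiquitin ligases and diacylglycerol kinases hold the signal down, and Tregs depend on this receptor for their maintenance and suppressive function.

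RNA was sequenced in 31 libraries in 10 groups from mice on the FVB/N background. KEP mice carried K14cre with Cdh1F/F and Trp53F/F, so that the keratin 14 promoter drives the Cre that deletes both floxed genes, for E-cadherin and p53, and bore mammary tumors of 225 mm2. WT littermates carried the same floxed Cdh1 and Trp53 alleles without Cre; the labels give no age. For each genotype there were 3 libraries each of lymph node (in KEP mice the tumor-draining node), lung, spleen and blood, with 3 more of KEP tumors and 4 of healthy WT mammary gland. Each KEP library held cells of 1 mouse and each WT library cells pooled from 3, and no date in the sample titles held both genotypes, so genotype, pooling and date cannot be told apart. Cells were sorted as live CD45+ CD3+ CD4+ CD8- CD25+ cells with no gate on FOXP3. The recorded number of sorted cells differed between groups. Each mammary gland and each WT blood library held fewer sorted cells than any spleen library. KEP blood replicates 1 and 3 held more than each WT blood library, and replicate 2 did not. The effect of cell input on the comparisons was not tested.

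Total counts ran from 8154765 to 15258958 per library. Levels are CPM, a gene's counts scaled to a common library total with TMM factors, as mean ± SD, and differences are log2 fold changes with their standard error (SE) from edgeR's quasi-likelihood test; a gene was called at an adjusted p under 0.05 over all genes tested. In the 8 groups of blood, spleen, lung and lymph node, Foxp3 averaged between 828 and 1691 CPM and Cd4 between 962 and 1138 CPM. The mammary gland and tumor libraries went against the sort gate: 10 T cell genes outside the 41 (among them Trac, Trbc1, Trbc2, Bcl11b, Cd28, Tespa1, Trat1, Cd27 and Ets1) summed to 16.6% ± 18 (SD, n = 4) and 51.0% ± 23.3 (n = 3) of their WT spleen mean there, against 89.2% to 127% in the other groups. The Treg markers Foxp3, Il2ra, Ctla4 and Ikzf2 summed to 746 ± 1002 CPM in mammary gland and 5511 ± 2945 in tumor. Their sums were 1905 and 2733 CPM in WT and KEP spleen and 3791 and 5556 in WT and KEP lung. Epithelial markers summed to 5571 CPM and milk and fat cell markers to 16840 CPM in mammary gland, and stromal markers to 7626 CPM and macrophage markers to 2656 CPM in tumor. Both tissues were fitted apart from the other 24 libraries because their libraries varied more than those of the other groups. In these bulk samples fewer cells of a type and less RNA per cell cannot be told apart.

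The promoters of 4 signalling genes are shown because, among the 32 members with an entry in the promoter table, they had the 2 largest differences between lung and spleen in each direction: Bcl10 and Ptpn22 were higher in lung, Ptpn6 and Csk lower, in both genotypes. They are RefSeq sequences on GRCm38.p6, 250 bases before to 50 bases after the start, 5′ to 3′ on the gene's strand, from chr3:145924012-145924311 (Bcl10, plus strand), chr3:103859545-103859844 (Ptpn22, plus), chr6:124738660-124738959 (Ptpn6, minus) and chr9:57645604-57645903 (Csk, minus). Capitals mark matches on either strand, which may overlap, to the NFAT core GGAAA, the NF-kB pattern (GGG, then 5 bases of any kind, then CC), the AP-1 pattern TGANTCA, the ETS core CCGGAA and the RUNX core TGTGGT.
Bcl10: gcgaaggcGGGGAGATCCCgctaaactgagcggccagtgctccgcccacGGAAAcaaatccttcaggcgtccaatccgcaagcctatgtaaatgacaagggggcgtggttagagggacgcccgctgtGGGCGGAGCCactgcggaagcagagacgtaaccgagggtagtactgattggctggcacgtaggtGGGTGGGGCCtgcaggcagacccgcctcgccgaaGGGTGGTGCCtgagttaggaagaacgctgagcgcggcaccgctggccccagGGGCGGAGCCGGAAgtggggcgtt
Ptpn22: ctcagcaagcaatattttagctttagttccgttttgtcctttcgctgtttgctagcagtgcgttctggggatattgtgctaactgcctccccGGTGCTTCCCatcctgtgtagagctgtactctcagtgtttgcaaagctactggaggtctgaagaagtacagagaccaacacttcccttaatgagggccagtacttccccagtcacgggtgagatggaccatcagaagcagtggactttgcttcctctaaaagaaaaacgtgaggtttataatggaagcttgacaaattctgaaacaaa
Ptpn6: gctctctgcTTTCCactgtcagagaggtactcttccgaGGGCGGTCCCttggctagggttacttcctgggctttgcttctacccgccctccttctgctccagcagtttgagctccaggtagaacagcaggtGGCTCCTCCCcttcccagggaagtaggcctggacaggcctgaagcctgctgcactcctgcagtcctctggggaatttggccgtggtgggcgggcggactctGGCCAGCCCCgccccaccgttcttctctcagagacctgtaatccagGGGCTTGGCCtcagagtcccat
Csk: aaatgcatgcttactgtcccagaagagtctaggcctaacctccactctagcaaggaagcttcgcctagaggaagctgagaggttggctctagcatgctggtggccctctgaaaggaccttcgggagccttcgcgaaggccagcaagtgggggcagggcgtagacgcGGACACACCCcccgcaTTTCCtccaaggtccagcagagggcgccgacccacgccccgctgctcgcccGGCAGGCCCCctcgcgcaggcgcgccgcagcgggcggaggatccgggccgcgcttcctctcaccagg

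Bcl10 had 6 matches to the NF-kB pattern, Ptpn6 had 4, Csk had 2 and Ptpn22 had 1, so the count of matches did not separate the genes that were higher in lung from those that were lower. Of all 32851 promoter windows in the table, 50.8% held the NF-kB pattern and 61.3% the NFAT core, against 50% and 67.4% of the 46 windows of the 32 members that matched. The AP-1 pattern was in 7.81% of all windows and in 0 of the 46. ETS cores were in 14.9% of all windows and 8.7% of the members' windows, and RUNX cores in 16.8% and 13%. These are descriptions of letters in a window, not of bound sites.

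Levels per kilobase of exon spanned a wide range. In WT spleen the highest levels, as CPM per kilobase of exon (RPKM), were those of Cd3g at 644, Cd3e at 529, the adaptor Lat at 509 and the kinase Lck at 505, followed by Dgka at 420. The other receptor complex genes were Cd4 at 314, Cd3d at 195 and Cd247 at 80.3. The lowest were the ubiquitin ligase Cbl at 15.98 and the adaptor Themis at 13.7. Malt1, the protease of the NF-kB arm, was 35th of 41 in WT spleen at 29.2 RPKM and stood at 94.3 in KEP lung, while Cd3g was at 592 there.

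Of the receptor complex genes 3 of 5 fell in WT lung (21.8% of all genes) and 2 of 5 in KEP lung (24.4%) against spleen. In blood and lymph node 0 were called, where between 4.41% and 13.8% of all genes were called each way. Cd3e (chromosome 9, 44998743 to 45009590 on GRCm38), which signals for the receptor, stood at 755, 765 and 799 CPM in WT spleen and 612, 673 and 583 in WT lung, and the groups did not overlap. Its neighbour Cd3d (44981793 to 44987052) read 345, 298 and 304 CPM in WT spleen and 246, 282 and 270 in WT lung. Cd3g (44969572 to 44980431) read 594, 656 and 725 CPM in WT spleen and 499, 601 and 539 in WT lung, and these groups did overlap. In WT lung against spleen these 3 genes fell by 0.31 ± 0.09, 0.25 ± 0.08 and 0.27 ± 0.09 (SE) on the log2 scale (adjusted p = 0.00671, 0.0163 and 0.0177, edgeR). With the GC and length correction given below, the 3 genes were no longer called in WT lung. In KEP mice Cd3d read 346, 312 and 362 CPM in spleen and 243, 246 and 267 in lung, and fell by 0.44 ± 0.08 with no overlap; Cd3e fell by 0.24 ± 0.09, and Cd3g, at -0.17 ± 0.09, was not called. Cd247, the zeta chain, and Cd4 differed by 0.08 and -0.02 in WT lung and were not called. Cd247 shares exon bases with Pou2f1 on the opposite strand and Cd3e with a predicted gene, so their counts are uncertain. The same holds for Skap1, Themis, Lcp2, Plcg1, Dgkz, Dgka (with Pmel) and Sla2 (with Rab5if), which share at least 105 exon bases with another gene on the opposite strand.

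**Figure D1:**
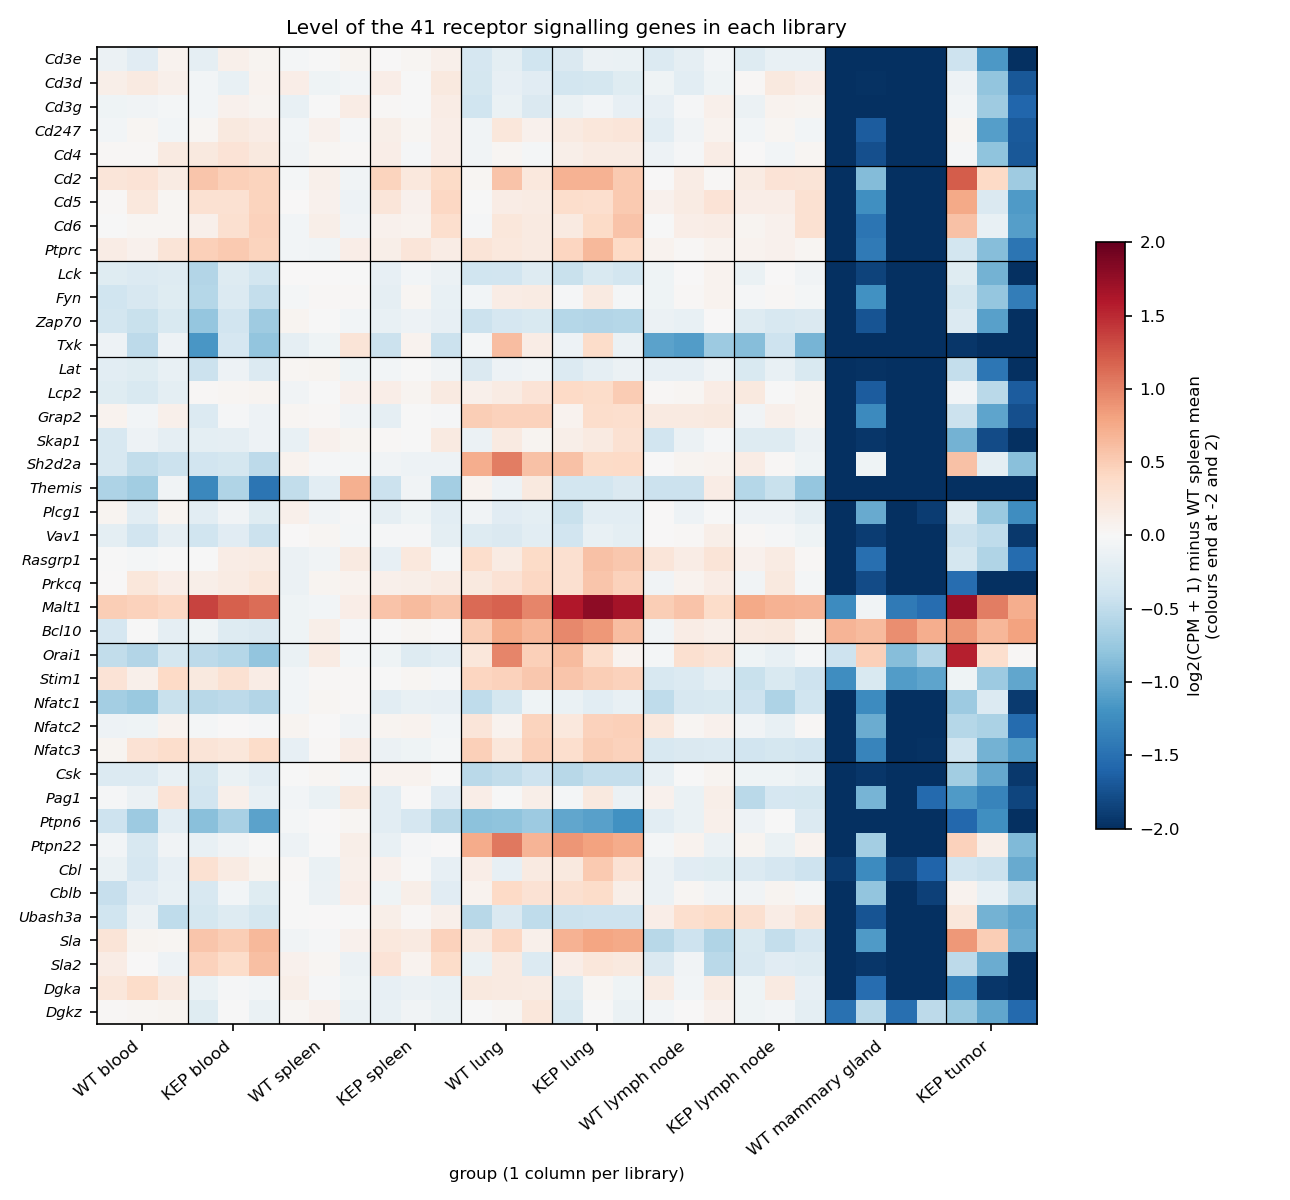
Each row is 1 of the 41 genes, in blocks by role from the receptor complex at the top to negative regulators at the bottom, and each column 1 library; colour is log2(CPM + 1) minus the WT spleen mean. Malt1 is red in both lung groups and the mammary gland columns are dark blue for most genes.

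Across the 4 WT tissues 27 of the 41 genes differed (any difference, edgeR), a share close to the 64.2% called among all 12825 genes tested. Sh2d2a, an adaptor that binds LCK, had the smallest adjusted p (2.5e-10), followed by Malt1 (5.1e-10) and Ptpn22 (4.6e-09), a phosphatase that acts on LCK and ZAP70. The test of whether tissue differences depended on genotype called 0 members (0.304% of all genes); 3 had an unadjusted p under 0.05, and DESeq2 called 3. The smallest adjusted p was that of Malt1, at 0.12 in edgeR, followed by Cd3d and Cbl. The 14 members not called among the WT tissues were Cd247, Cd4, Cd5, Cd6, Ptprc, Lat, Themis, Skap1, Plcg1, Cbl, Sla2, Dgka, Dgkz and Pag1.

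Of blood, lung and lymph node, lung had the most members called against spleen. In WT mice 16 members were higher in lung (23.1% of all genes tested were) and 10 were lower (21.8%), and in KEP mice 17 were higher (23.7%) and 7 lower (24.4%). The median log2 difference over the 41 genes was 0.09 in WT and 0.15 in KEP mice, against -0.01 and -0.03 over all genes. By role the medians were 0.40 and 0.50 for calcium entry and NFAT, 0.30 and 0.39 for effector enzymes, 0.08 and 0.04 for negative regulators and -0.25 and -0.17 for the receptor complex. With GC content and transcript length corrected for they were 0.24 and 0.26, 0.27 and 0.32, -0.05 and -0.003, and -0.11 and -0.04. WT and KEP libraries are separate mice: over the 41 genes the differences correlated at r = 0.957, against 0.881 over all genes, and 23 members were called in both genotypes, 16 of them higher and 7 lower. Those 23 were 88.5% of the members called in WT and 95.8% of those called in KEP mice; over all genes the shares were 80.6% and 75.2%.

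The NF-kB arm held the gene with the smallest p. Malt1 read 148, 151 and 171 CPM in WT spleen and 345, 354 and 307 in WT lung; in KEP mice it read 234, 242 and 229 in spleen and 479, 545 and 497 in lung. Each lung library was above each spleen library of its genotype, a log2 difference of 1.10 ± 0.08 in WT (adjusted p = 7.3e-11) and 1.10 ± 0.08 in KEP mice (5.6e-11). Its partner Bcl10 read 56.7, 65.4 and 59.2 CPM in WT spleen and 84.9, 103 and 95.9 in WT lung, a difference of 0.65 ± 0.10. In KEP mice Bcl10 was at 59.7, 61.7 and 61.0 CPM in spleen and 119, 111 and 93.0 in lung (0.82 ± 0.10), again with no overlap. Prkcq, which encodes the kinase PKC-theta upstream of both, was 0.30 ± 0.09 and 0.31 ± 0.09 higher in WT and KEP lung.

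Genes of calcium entry moved alongside. Stim1, the calcium sensor of the endoplasmic reticulum, was at 190, 200 and 201 CPM in WT spleen and 266, 272 and 287 in WT lung, and rose by 0.48 ± 0.08 in WT and 0.50 ± 0.08 in KEP mice. Orai1, the pore that STIM1 opens, was 0.60 ± 0.16 and 0.55 ± 0.16 higher. Nfatc3 rose by 0.40 ± 0.09 and 0.51 ± 0.09, whereas Nfatc1 was 0.30 lower in WT lung; Nfatc3 shares exon bases with the epithelial gene Esrp2.

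Of the 6 adaptors 3 rose and 0 fell in lung in each genotype. Of the 11 negative regulators 3 rose and 3 fell in WT and 4 rose and 3 fell in KEP lung. Over all genes 23.1% rose and 21.8% fell in WT lung, and 23.7% rose and 24.4% fell in KEP lung. Sh2d2a read 312, 292 and 287 CPM in WT spleen and 490, 602 and 443 in WT lung, 0.79 ± 0.09 higher, and was 0.54 ± 0.09 higher in KEP lung. Grap2, the adaptor that bridges LAT and SLP-76, was 0.47 and 0.33 higher. Ptpn22 read 274, 294 and 320 CPM in WT spleen and 496, 616 and 473 in WT lung; in KEP mice it read 265, 291 and 298 in spleen and 549, 519 and 496 in lung. These differences were 0.84 ± 0.10 and 0.87 ± 0.10 (adjusted p = 1.2e-07 and 6.3e-08, edgeR), without overlap.

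Other brakes were lower in lung. Ptpn6, the phosphatase SHP-1, read 321, 332 and 338 CPM in WT spleen and 187, 188 and 199 in WT lung, and fell by 0.79 ± 0.12 in WT and 0.76 ± 0.12 in KEP mice; it shares exon bases with a predicted gene. Csk, the kinase that inhibits LCK, read 550, 574 and 544 CPM in WT spleen and 382, 396 and 419 in WT lung, and fell by 0.48 ± 0.07 and 0.55 ± 0.07. Ubash3a, a phosphatase-like suppressor of receptor signalling, fell by 0.45 and 0.50. The proximal kinases Zap70 and Lck were lower too, by 0.35 and 0.44 and by 0.34 and 0.27. The other members called in lung were Rasgrp1, Nfatc2, Cd2, Ptprc, Sla, Cblb and Lcp2, higher in both genotypes, Cbl, higher in KEP lung, and Vav1, lower in WT lung.

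**Figure D2:**
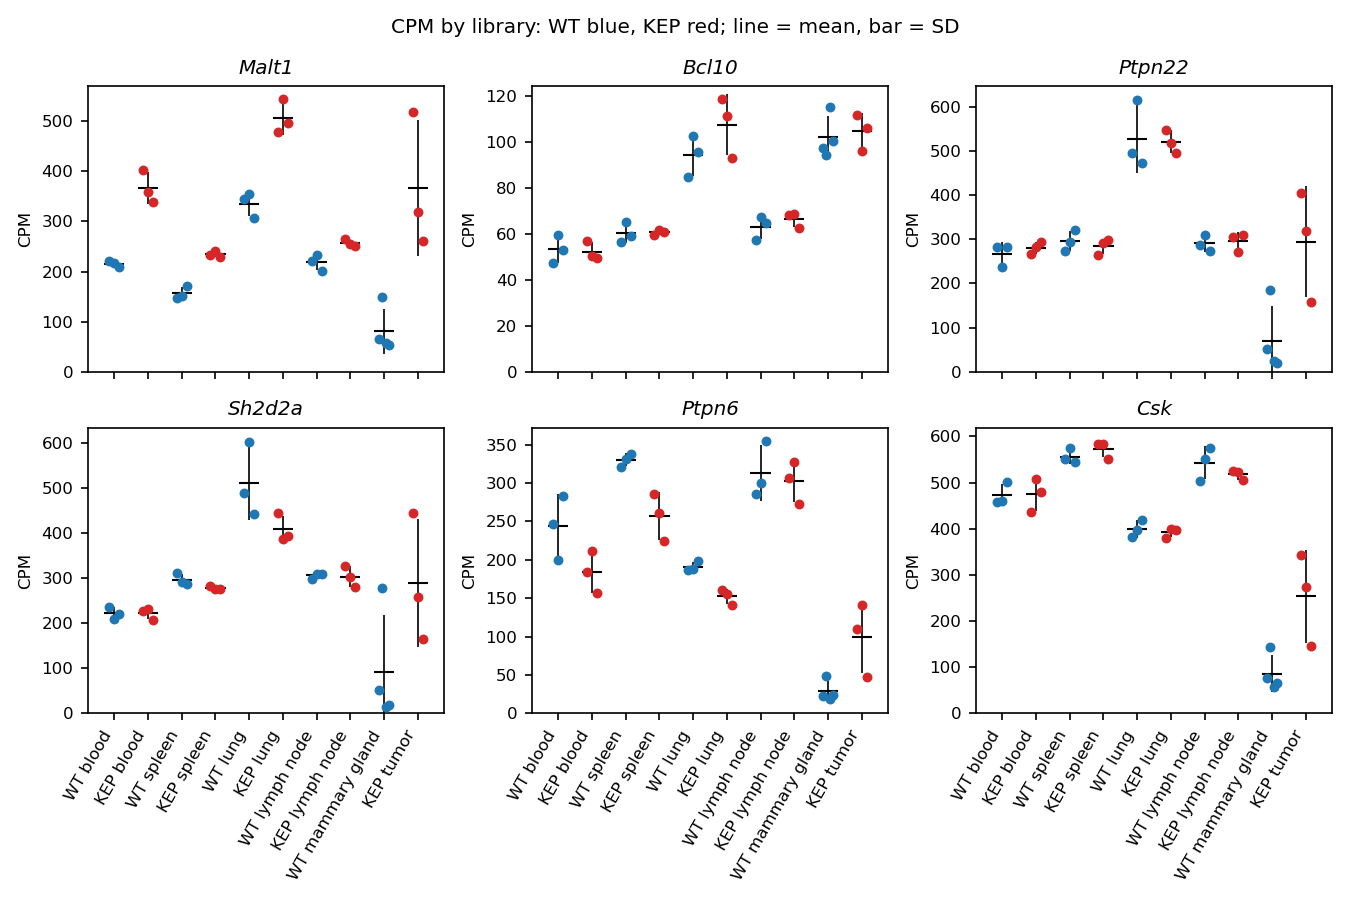
CPM of 6 genes in each library (points; WT blue, KEP red) with the group mean (line) and SD (bar) over 10 groups. Both lung groups lie above all blood, spleen and lymph node libraries for Bcl10, Ptpn22 and Sh2d2a, and below them for Csk.

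**Figure D3:**
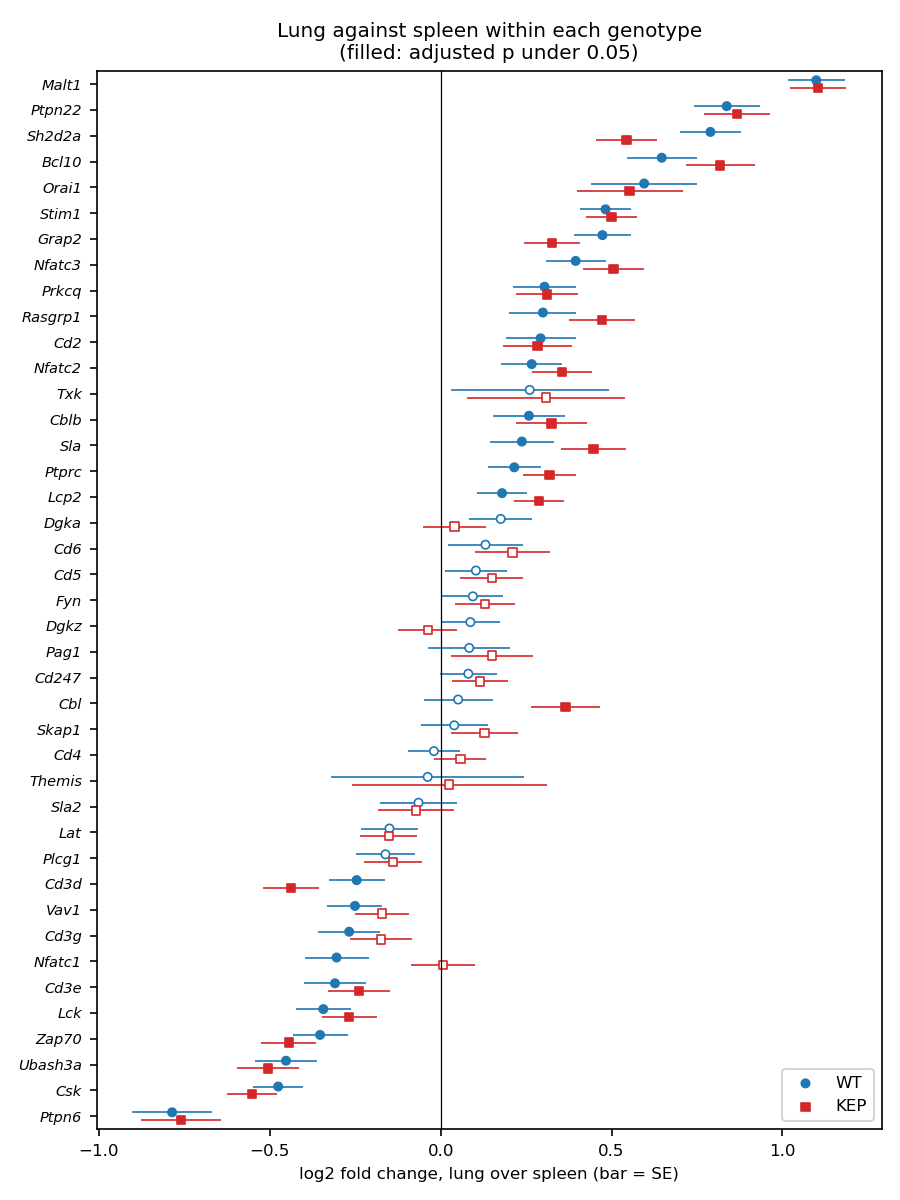
Log2 fold change of lung over spleen for the 41 genes in WT (circles) and KEP mice (squares), with SE bars and filled marks for an adjusted p under 0.05, ordered by the WT value. Malt1 is at the top at 1.10 in both genotypes and Ptpn6 at the bottom at -0.79 and -0.76.

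Several of these values moved with the fit. With GC content and transcript length corrected for in edgeR, 13 members were higher (23.3% of all genes) and 8 lower (23.1%) in WT lung. Cd3e, Cd3d, Cd3g, Ptprc, Rasgrp1, Nfatc2 and Cblb were no longer called there and Plcg1 and Dgka were. Cd3d was still called in KEP lung (-0.29, adjusted p = 0.00133, edgeR). With all 31 libraries in 1 fit, which adds the mammary gland and tumor libraries to the shared spread, 3 members were called in WT lung (27% of genes) and 5 in KEP lung (28.2%). Malt1, Bcl10 and Ptpn6 stayed called in both genotypes under every alternative run. Lungs were digested at 37 degrees, per the labels' protocols, and spleens were not stated to be; tissue and digestion cannot be told apart. Macrophage markers (9 of the 10 listed were found) summed to 135 CPM in WT lung and 61.0 in KEP lung, against 10.4 and 27.3 in spleen, and B cell markers, mostly Ighm, to 404 and 522 against 714 and 816; their part in these differences was not tested.

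Genes that a triggered receptor switches on were higher in lung by far more. Of 14 early response genes, 11 rose in WT and 11 in KEP lung, with medians of 2.51 and 2.61, and 0 fell. Tissue and digestion cannot be told apart for these genes either. Nr4a3, an orphan nuclear receptor gene, was at 22.1 CPM in WT spleen and 1123 in WT lung; Nfkbid, an atypical inhibitor of NF-kB, rose by 2.98 ± 0.12, and Cd69, an early activation marker, by 2.78 ± 0.12. Of 36 other genes of the pathway, 15 rose and 7 fell in WT lung and 17 rose and 7 fell in KEP lung. For both lists the shares over all genes were 23.1% higher and 21.8% lower in WT lung. In KEP lung they were 23.7% and 24.4%. Pik3r1, a regulatory subunit of PI3 kinase, rose by 1.33 and 1.43, Ubash3b by 0.89 and 0.88, Trat1 by 0.91 in WT and Ppp3ca, a calcineurin subunit, by 0.78 in KEP mice. Dok1, Sit1 and Tespa1 fell by 1.21, 0.85 and 0.69 in WT lung and by 1.08, 0.97 and 0.87 in KEP lung.

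Kinases, adaptors and brakes close to the receptor were among the genes that fell in blood. In WT blood 4 members were higher (13.8% of all genes) and 11 lower (11.8%), and in KEP blood 5 were higher (12.3%) and 11 lower (12.2%). Nfatc1, an NFAT factor that is itself induced by NFAT, read 373, 400 and 393 CPM in WT spleen and 241, 232 and 286 in WT blood, and fell by 0.61 ± 0.09. In KEP mice it read 335, 348 and 345 in spleen and 263, 269 and 258 in blood, and fell by 0.39 ± 0.09. Zap70 fell by 0.37 ± 0.08 and 0.49 ± 0.08, Fyn by 0.32 and 0.35, Ptpn6 by 0.43 and 0.49, and Ubash3a by 0.33 and 0.41. Sh2d2a fell by 0.41 in WT blood and Csk by 0.28 in KEP blood.

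The genes that were higher in blood made up 9.76% of the members in WT and 12.2% in KEP mice, against 13.8% and 12.3% of all genes. Malt1 read 221, 217 and 209 CPM in WT blood and 403, 359 and 340 in KEP blood, 0.46 ± 0.08 and 0.63 ± 0.08 above spleen. Stim1 rose by 0.27 and 0.21, Nfatc3 by 0.24 and 0.35, Dgka by 0.26 in WT blood, and Ptprc and Sla by 0.29 and 0.26 in KEP blood. Dgka and Nfatc3 in WT blood and Stim1 and Sla in KEP blood were called in 8 of 15 alternatives each. Over the 41 genes the 2 genotypes' differences correlated at r = 0.877 (0.676 over all genes), and 13 members were called in both, 86.7% of those called in WT and 81.2% of those called in KEP mice, against 60.2% and 62.6% over all genes. Of the 14 early response genes 8 fell in WT blood (11.8% of all genes) and 9 in KEP blood (12.2%). In each genotype 2 rose, Cd69 and Irf4 (13.8% and 12.3% of all genes). Egr2 was at 15.97 CPM in WT spleen and 1.28 in WT blood. Without WT blood replicate 2 the count in WT blood was 7, and without KEP blood replicate 1 that in KEP blood was 9. With all 31 libraries in 1 fit 0 members were called in WT blood (7.88% of genes) and 0 in KEP blood (7.24%), with Malt1 at 0.46 and 0.64.

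Lymph node Tregs lay closest to spleen Tregs. In WT mice 2 members were higher (4.56% of all genes) and 5 lower (4.41%), and in KEP mice 0 were higher (5.35%) and 4 lower (5.72%). Sla, an adaptor-like suppressor that promotes receptor turnover, read 522, 540 and 585 CPM in WT spleen and 374, 411 and 362 in WT node, and fell by 0.52 ± 0.09. In KEP mice it read 637, 622 and 759 in spleen and 443, 394 and 434 in node, and fell by 0.65 ± 0.09. Its relative Sla2 fell by 0.51 ± 0.11 in KEP node. Txk, a TEC family kinase, read 101, 107 and 137 CPM in WT spleen and 53.9, 52.1 and 68.6 in WT node, a fall by 0.97 ± 0.24. Stim1 and Nfatc3 fell in both genotypes, by 0.25 and 0.29 in WT and 0.38 and 0.28 in KEP mice, and Nfatc1 by 0.37 in WT.

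Malt1 and Ubash3a were the WT members that rose in lymph node, by 0.48 ± 0.08 and 0.30 ± 0.09. Over the 41 genes the differences of the 2 genotypes correlated at r = 0.766 (0.667 over all genes), and 3 members, Sla, Stim1 and Nfatc3, were called in both, 42.9% of those called in WT and 75% of those called in KEP mice, against 59% and 47.7% over all genes. With the title date as a block, which pairs libraries of the same date, 12 members were called in KEP node, against 19% of all genes. Leaving out WT spleen replicate 2 or 3, or WT lymph node replicate 1 or 2, left 3 or 4 members called in WT node. With all 31 libraries in 1 fit 0 were called in WT node (1.95% of genes) and 0 in KEP node (1.62%). The early response genes were higher in node than in spleen for 9 of 14 in WT (4.56% of all genes) and 10 of 14 in KEP mice (5.35%). Irf4 was up by 1.37 and 1.09 and Egr2 by 1.64 and 1.46.

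Malt1 had the smallest p of the 41 genes between KEP and WT mice in blood, spleen and lung. It read 221, 217 and 209 CPM in WT blood and 403, 359 and 340 in KEP blood, and the levels given above for spleen and lung also did not overlap. The log2 differences were 0.75 ± 0.08 in blood, 0.58 ± 0.08 in spleen and 0.59 ± 0.08 in lung (adjusted p = 2.5e-06, 8.0e-05 and 4.8e-05, edgeR), and over 14 alternatives they lay between 0.67 and 0.81, 0.54 and 0.64, and 0.47 and 0.64. In lymph node the libraries read 220, 232 and 202 CPM in WT and 264, 254 and 250 in KEP mice, 0.24 ± 0.08 apart, which was not called (adjusted p = 0.17). The order of Malt1 by group mean ran from WT mammary gland (81.1 CPM) and WT spleen (157) through WT blood (215), WT node (218), KEP spleen (235) and KEP node (256) to WT lung (335), KEP tumor (366), KEP blood (367) and KEP lung (507). Neighbours in this order overlapped for mammary gland and WT spleen, WT blood and WT node, WT node and KEP spleen, WT lung and tumor, tumor and KEP blood; WT lung also overlapped KEP blood, and tumor overlapped KEP node and KEP lung.

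In all, 6 members were higher (9.88% of all genes) and 3 lower (10.3%) in KEP blood, 1 higher (3.3%) and 0 lower (0.959%) in KEP spleen, and 7 higher (9.61%) and 5 lower (10.3%) in KEP lung. In lymph node 0 were higher (0.663%) and 0 lower (0.452%); 4 had an unadjusted p under 0.05, and DESeq2 called 1. Sla read 657, 570 and 563 CPM in WT blood and 803, 775 and 859 in KEP blood, 0.42 ± 0.09 higher, and 0.50 ± 0.09 higher in KEP lung. The tyrosine phosphatase CD45 (Ptprc), the ubiquitin ligase Cbl and the adaptor Lcp2 were called higher in both tissues, by 0.29, 0.37 and 0.26 in blood and 0.27, 0.29 and 0.24 in lung. Sla2 rose by 0.44 in blood, and the surface receptors Cd2 and Cd5 by 0.34 and 0.30 in lung. In spleen Malt1 was the member called.

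The members that fell in KEP mice included brakes and a kinase. Dgka, a diacylglycerol kinase that limits Ras signalling, read 1394, 1530 and 1345 CPM in WT blood and 1085, 1170 and 1149 in KEP blood, and fell by 0.35 ± 0.09 there and by 0.28 ± 0.09 in lung. Ptpn6 fell by 0.42 ± 0.12 and 0.34 ± 0.12 in blood and lung, and Zap70 by 0.26 and 0.23; the blood libraries of both genes overlapped between genotypes. Sh2d2a and Dgkz fell by 0.34 and 0.24 in lung, where the Sh2d2a libraries overlapped, as did those of Cd2. Over 14 alternatives each, Zap70 was called in 6 in blood and 5 in lung. In lung Ptpn6 was called in 6, Dgka in 5, Dgkz in 5 and Sh2d2a in 10. In blood Dgka was called in 11 and Ptpn6 in 10. The genes of the receptor complex were not called in any of the 4 tissues, with differences between -0.19 for Cd3d in blood and 0.26 for Cd3d in lymph node. The interaction test in edgeR called 0 members, but limma-voom with the title date as a random block called 3 (3.42% of all genes) and DESeq2 called 3 (2.67%), so whether these genotype effects differ between tissues depends on the fit.

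**Figure D4:**
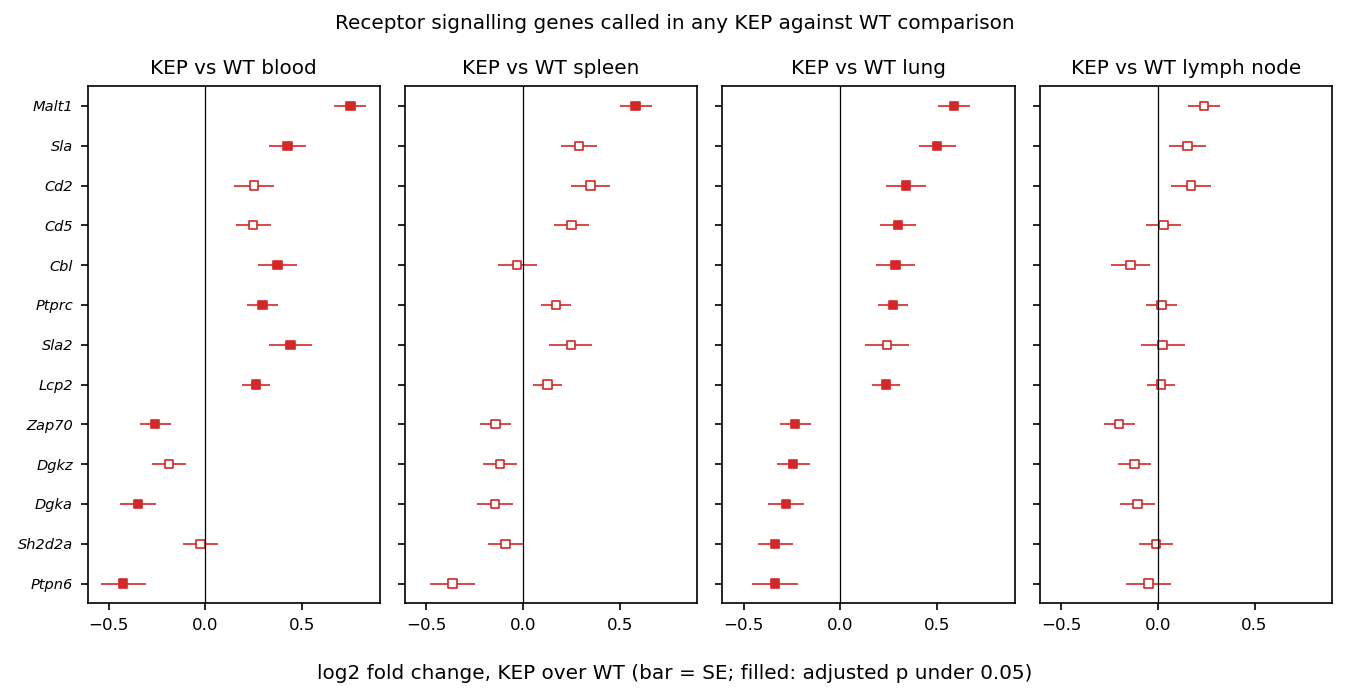
Log2 fold change of KEP over WT, with SE bars and filled squares for an adjusted p under 0.05, for the 13 genes called in at least 1 of blood, spleen, lung and lymph node. Malt1 lies between 0.58 and 0.75 in blood, spleen and lung and at 0.24 in lymph node.

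Some of these genotype calls were lost when GC content and transcript length were corrected for together. The 2 corrections were not run apart. Across all genes the KEP against WT difference correlated with transcript GC content at a Spearman rho of -0.268 in blood and -0.308 in lung. With the GC and length correction 8 members were higher (8.48% of all genes) and 3 lower (9.22%) in blood, where Ptprc and Zap70 were no longer called and Cd2, Cd5, Cd6 and Themis were. In lung 7 were higher (8.26%) and 0 lower (7.71%): Sh2d2a, Dgka, Zap70, Ptpn6, Dgkz, Ptprc and Lcp2 were no longer called, and Cd4 and Cd6 were. The folds of Zap70 and Dgkz went to -0.05 each and that of Ptprc to 0.12, while Lcp2 was at 0.18, Sh2d2a at -0.24, Ptpn6 at -0.25 and Dgka at -0.23. With all 31 libraries in 1 fit 0 members were called in blood (4.32% of genes) and 0 in lung (3.09%), and over 14 alternatives the adjusted p of Malt1 ran from 3.7e-18 to 0.085 in blood, 2.0e-10 to 0.54 in spleen and 1.8e-11 to 0.2 in lung. Leaving out WT lung replicate 1, 2 or 3 or KEP lung replicate 1 or 3 left 6 or 7 members called in lung.

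Treg markers were higher in KEP than in WT mice. Foxp3, Il2ra, Ctla4 and Ikzf2 summed to 2381 ± 362 CPM in WT and 4074 ± 466 in KEP blood, 1905 ± 186 and 2733 ± 336 in spleen, 3791 ± 348 and 5556 ± 205 in lung, and 2775 ± 373 and 3364 ± 190 in lymph node (SD, n = 3 each). The groups did not overlap in any of the 4 tissues. Markers of CD8 T and NK cells summed to 167 CPM in WT and 79.7 in KEP blood, and to 107 and 64.7 in lung. The part of either list in the differences of the receptor genes was not tested. Of the 36 other pathway genes, 6 rose and 3 fell in KEP blood, 2 rose and 1 fell in spleen, 7 rose and 1 fell in lung and 0 were called in lymph node. Over all genes 9.88% rose and 10.3% fell in blood, 3.3% and 0.959% in spleen and 9.61% and 10.3% in lung. In lymph node these shares were 0.663% and 0.452%. Ubash3b rose in blood, spleen and lung by 0.46, 0.40 and 0.38, and Trat1 by 0.74 in spleen, while the calcium channel gene Itpr3 fell by 0.43 in blood and 0.41 in lung. Of the 14 early response genes 3 rose and 4 fell in KEP blood, and 1 rose and 0 fell in KEP spleen, beside the shares of all genes just given. Their median in blood was -0.378, with values from -1.93 to 1.60. The highest was that of Tnfrsf9, a costimulatory receptor, which rose by 1.60 in blood and 1.45 in lung.

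In tumors a kinase of the NF-kB arm, a TEC family kinase and an adaptor fell most, and the 3 libraries differed widely. Prkcq read 452, 456 and 474 CPM in KEP spleen and 146, 97.7 and 57.9 in tumor, and fell by 2.18 ± 0.34 (adjusted p = 0.00476, edgeR). Txk read 84.6, 119 and 84.2 CPM in spleen and 28.9, 15.7 and 10.9 in tumor, a fall by 2.36 ± 0.39. Themis, an adaptor of thymocyte and T cell receptor signalling, read 53.4, 68.9 and 44.7 CPM in spleen and 16.1, 13.7 and 6.85 in tumor, a fall by 2.17 ± 0.34. Each tumor library was below each spleen library for these 3 genes, and tumor replicate 1 was highest in each.

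Against KEP spleen 1 member was higher (26.9% of all genes) and 13 lower (19.9%) in tumor. Dgka, Skap1 and Pag1, the adaptor that recruits CSK, fell by 1.75, 1.61 and 1.25, and the other 7 that fell were Dgkz, Csk, Ptpn6, Nfatc2, Sla2, Ptprc and Nfatc3. Bcl10 was the member that rose, from 60.8 ± 1.01 to 105 ± 8.00 CPM (0.81 ± 0.11). The CD3 genes were not called: Cd3e read 775, 796 and 831 CPM in spleen and 577, 347 and 165 in tumor. Against KEP lymph node 1 member was higher (26.5%), again Bcl10 (0.71), and 9 were lower (18.3%), with Prkcq, Themis, Txk and Dgka falling by 2.05, 1.92, 1.85 and 1.85, Ptpn6 by 1.57, Skap1 by 1.30, Csk by 0.98, Pag1 by 0.96 and Dgkz by 0.92. Without tumor replicate 1, 31 members were called against spleen and 30 against lymph node; without replicate 2, 8 were called against spleen, and without replicate 3, 19 against lymph node. Leaving out any 1 KEP spleen library gave 7, and any 1 KEP lymph node library gave 5 or 6. The share of all genes called in fits with 1 library left out is not given here, so these counts do not single out the members.

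The T cell share of the libraries moved with these values. The 10 T cell genes outside the members stood at 74.9%, 49.7% and 28.3% of their WT spleen mean in tumor replicates 1, 2 and 3, and the 41 members' summed CPM at 92.4%, 61.5% and 34.6%. Of the 10 genes outside the members Ets1 was the most abundant, at 2272 of a summed 5250 CPM in KEP spleen and 1158 of 2712 in tumor. Whether the 10 genes themselves differ per T cell between tissues was not tested, and values on this scale depend on it. Scaled to those 10 genes in edgeR, 9 members were higher in tumor than in spleen (47.6% of all genes) and 4 lower (1.51%). The genes that stayed lower were Prkcq (-1.23, adjusted p = 0.00584), Txk (-1.43, 0.0118), Themis (-1.21, 0.0284) and Dgka (-0.82, 0.0216). The 9 higher genes were Bcl10 (1.96), Orai1 (1.91), Malt1 (1.66), Cd2 (1.02), Ptpn22 (1.01), Sh2d2a (1.00), Cblb (0.97), Sla (0.92) and Cd6 (0.68), whose values on the library scale lay between -0.21 and 1.02. Against lymph node the same scaling gave 7 higher (36.5%) and 4 lower (1.57%): Prkcq (-1.28), Themis (-1.13), Txk (-1.10) and Dgka (-1.09) stayed lower, while Ptpn6, Skap1, Csk, Pag1 and Dgkz were no longer called.

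**Figure D5:**
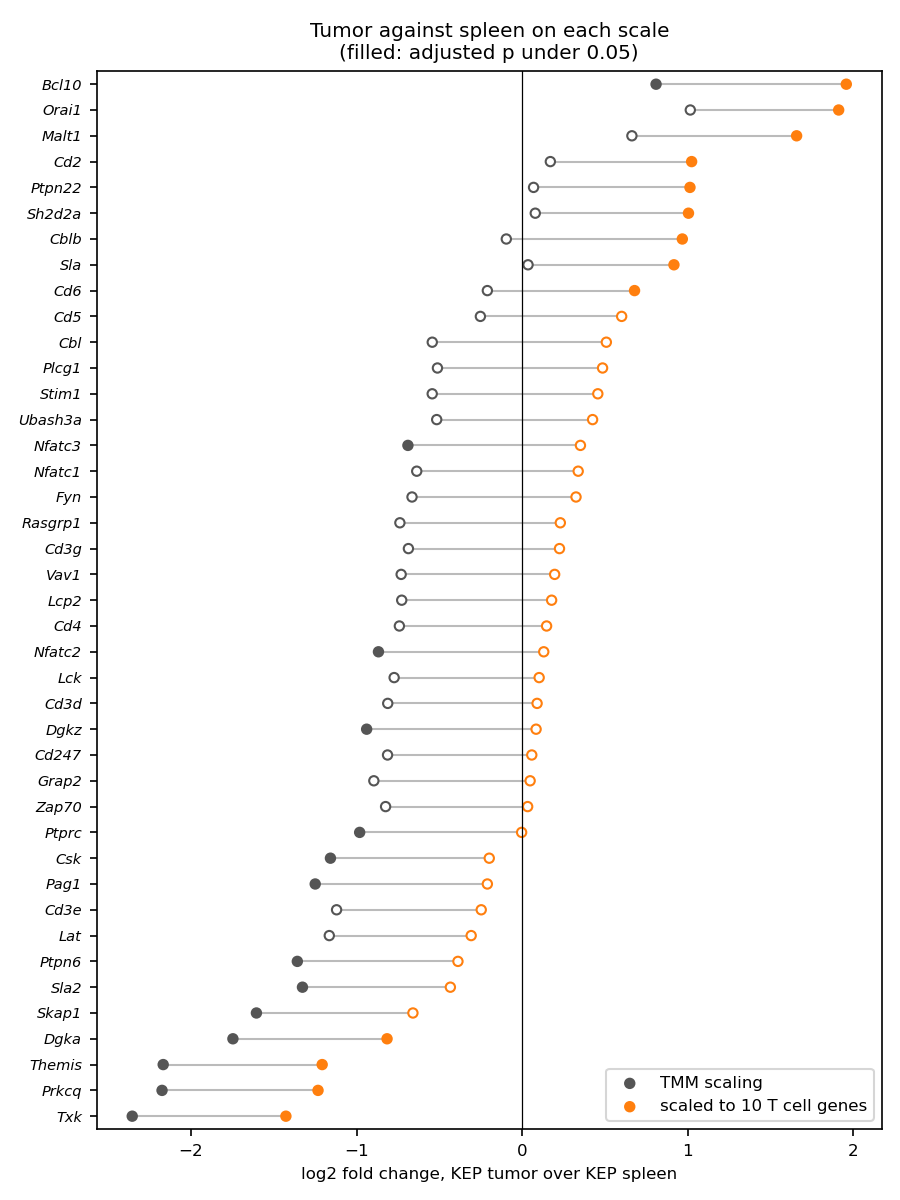
Log2 fold change of KEP tumor over KEP spleen for the 41 genes with TMM scaling (grey) and scaled to 10 T cell genes (orange); filled marks have an adjusted p under 0.05. Txk, Prkcq, Themis and Dgka lie at the bottom on both scales, and Bcl10, Orai1 and Malt1 at the top.

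What other cells in the tumor libraries contributed to these genes was not tested. Bcl10 stood at 97.6, 94.6, 116 and 101 CPM in the mammary gland libraries, where the T cell genes were at 10.7%, 43.3%, 5.87% and 6.46% of WT spleen, so its level there did not follow the T cell genes. Among the other genes of the pathway 3 rose and 9 fell in tumor against spleen on the library scale, with Ppp3ca, Itpr1 and Map2k1 up by 0.70, 0.80 and 0.53 and Lax1, Trat1 and Tespa1 down, at -2.51, -1.98 and -1.62; 4 of the 36, Tespa1, Trat1 and Cd28 among them, are also scaling genes. Early response genes were higher for 9 of 14, with Nr4a1 at 50.3 CPM in spleen and 2312 in tumor. Over all genes 26.9% were higher and 19.9% lower in tumor than in spleen. Tumors were digested with collagenase at 37 degrees, and this cannot be told apart from tissue.

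Most of the 41 genes were lower in healthy mammary gland than in spleen. Against WT spleen 1 member, Bcl10 (0.74 ± 0.13), was higher (42.1% of all genes) and 38 were lower (28.5%); Themis fell by 4.77 ± 0.55, and Sh2d2a and Orai1 were not called. The phosphatase Ptpn6 was at -3.54, Csk at -2.70, Nfatc3 at -1.91, Plcg1 at -1.72 and Cbl at -1.66. Cd3e read 32.0, 128, 12.6 and 19.6 CPM, with replicate 2 far above the others. Scaled to the 10 T cell genes 6 members were higher (90.9% of all genes) and 0 lower (0.474%), namely Bcl10 (4.27), Orai1 (2.89), Dgkz (2.43), Stim1 (2.39), Malt1 (2.14) and Cbl (1.71).

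Tumor against mammary gland is the comparison of the tissue of origin with and without a tumor. In it 10 members were higher (11.2% of all genes) and 0 lower (14%): Cd3g (3.06 ± 0.85), Cd3e (3.03 ± 0.87), Ubash3a (2.83), Malt1 (2.28 ± 0.45), Themis (2.19), Ptpn6 (1.90), Csk (1.66), Cblb (1.58), Nfatc3 (1.21) and Cbl (1.17). DESeq2 called 30 members (37.7% of all genes) and limma-voom 31 (31.6%) in the same comparison. Scaled to the T cell genes 0 members were higher (0.894%) and 2 were lower (64.8%), Dgkz at -2.45 and Bcl10 at -2.28. The count with TMM scaling was 36 without mammary gland replicate 2 and 22 without tumor replicate 3, and 2 without any 1 of the other 5 libraries.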

How the data were processed

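RNA of sorted Tregs was measured in 31 libraries. The deposited values are raw counts per gene that the authors obtained, per the submitters' processing notes, with TopHat2 2.1.0, TopHat and HTSeq on GRCm38; annotation release and strand setting are not given in the sources used here. Per the labels, libraries were stranded and reads single, of 65 bases. In a chi-square test of counts over genes, the statistic over its degrees of freedom lay between 4.45 and 176.8 for pairs of replicates, and no pair was within sampling noise. P-values measure the spread between these samples.

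The main test was edgeR 4.0.16 (R 4.3.3), the robust quasi-likelihood F test with TMM factors and filterByExpr at a minimum count of 10, on 24 libraries of 4 tissues (12825 genes); comparisons with tumor or mammary gland used the libraries compared (12903 to 14557 genes). Benjamini-Hochberg adjustment covered all genes tested. RPKM used the union of exons in GENCODE M21, which held 24270 of the 24594 identifiers. The scripts were tested on simulated data.

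The members and lists were chosen with earlier results of these data known. Called members are named where there are at most 12 and otherwise up to 6 each way with the smallest p; of the other lists, up to 3 each way. Some genes of those lists are counted but not reported here by name. Early response, pathway and marker lists are given as counts or sums.

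The title date recurs across tissues within a genotype. Deviations from group means of same-date KEP libraries correlated over 0.1 in 18 of 18 pairs (median 0.333), and of WT libraries in 11 of 18 (median 0.107); the labels share the date, so it was used as the pairing, as a replicate block in an alternative. Other alternatives were RLE factors, no filter, DESeq2 1.42.0, limma-voom (limma 3.58.1) without and with the date as a random block, all 31 libraries, the libraries compared alone, scaling to 10 T cell genes outside the members, and leaving out each library. A GC and length correction (splines with 5 degrees of freedom), its joint use with the block, and T cell gene scaling without tumor replicate 3 were chosen after seeing the data.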

Additional observations from a re-analysis of the deposited data

Results flagged for a closer look

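WT mammary gland replicate 2 stood apart from the other 3 mammary gland libraries for 20 of the 41 genes: its gap to the next library, as a share of the group's range, was over Dixon's 95% critical value for 4 samples. Mammary gland was the one group of 4 libraries, and groups of 3 were not tested; chance marks about 1 in 20 groups. For the receptor complex the library read 127.9 CPM for Cd3e, 79.61 for Cd3d and 288.9 for Cd4. Surface genes stood at 246.3 CPM for Cd2, 272.7 for Cd5, 272.8 for Cd6 and 664.3 for Ptprc. The kinases Lck and Fyn read 322.1 and 202.6 CPM, and the adaptor Sh2d2a 279.2. Effector genes read 278.6 CPM for Plcg1, 68.04 for Vav1, 121 for Prkcq and 148.3 for Malt1, and calcium and NFAT genes 159.4 for Stim1, 162.6 for Nfatc1 and 96.97 for Nfatc2. The negative regulators Ubash3a, Sla and Dgka read 46.11, 248.6 and 413.6 CPM. The 10 T cell genes outside the members stood at 43.3% of their WT spleen mean in this library. In the other 3 they stood between 5.87% and 10.7%. This library also had more sorted cells recorded than each of the other 3. The part of the T cell genes or of cell input in these values was not tested.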

How the results depend on the processing

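Over 112 results for single genes, 1380 alternative values kept direction and call, 287 kept direction but were no longer called and 15 changed sign. All 15 came from scaling to the 10 T cell genes: for tumor against mammary gland Cbl -1.21, Ptpn6 -0.35, Cblb -0.55, Csk -0.60 and Nfatc3 -1.06, and without tumor replicate 3 Malt1 -0.0501, Cbl -1.39, Ptpn6 -0.24, Cblb -0.79, Csk -0.60 and Nfatc3 -1.31; for mammary gland against spleen Cbl 1.71, Csk 0.46, Nfatc3 1.34 and Plcg1 1.51. Counts of called members moved by over 1.5 times as follows, and the cause was not tested. The share of all genes is not given beside these counts or those with 1 library left out, so they do not single out the members. With all 31 libraries, KEP against WT gave 0 in blood, spleen and lung, tumor against mammary gland 36, WT blood and lymph node 0, WT lung 3, KEP blood and lymph node 0, KEP lung 5 and any WT tissue 5. KEP against WT spleen gave 4 without the filter and with DESeq2, 2 with limma-voom and with the GC correction, and 3 with the libraries alone and the random date block. KEP against WT lung gave 4 with its libraries alone and 7 with the GC correction, and lymph node 1 without the filter, with DESeq2, alone and with the random block. Tumor against mammary gland gave 30 with DESeq2, 31 with limma-voom and 2 with T cell scaling, with or without tumor replicate 3; tumor against lymph node 16 with DESeq2 and 16 with that scaling without replicate 3; mammary gland against spleen 6 with it. WT blood gave 8 alone, KEP lymph node 8 with DESeq2 and alone, and the interaction 1 without the filter and 3 with DESeq2 and the random block.

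The replicate block by title date moved 1 count by over 1.5 times, KEP lymph node against spleen, to 12; together with the GC correction it gave 25 in WT blood, 14 in WT lymph node, 25 in KEP blood and 15 in KEP lymph node, and the block alone ended no call of a named gene. Leaving out 1 library gave 7 to 11 for KEP against WT blood, 1 to 2 in spleen, 6 to 8 in lung and 0 to 0 in lymph node, 2 to 36 for tumor against mammary gland, 7 to 13 for WT blood, 18 to 23 for WT lung, 3 to 6 for WT lymph node, 9 to 16 for KEP blood, 22 to 24 for KEP lung, 3 to 4 for KEP lymph node, 7 to 31 for tumor against spleen, 5 to 30 against lymph node, 32 to 41 for mammary gland, 0 for the interaction and 23 to 27 for any WT tissue.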
